A study of Mus musculus with 6 samples.

Results

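Extracellular vesicles (EVs) from MDA-MB-231 cells, a human triple-negative breast cancer line, were compared with EVs from MCF10A cells, a non-tumorigenic human breast epithelial line, through the RNA of mouse fibroblasts that received them. NIH3T3, an immortalised mouse embryo fibroblast line, was at passage 5 and was grown in DMEM with fetal bovine serum. The cells were given MDA-MB-231 EVs (2 libraries), MCF10A EVs (2 libraries) or the PBS carrier alone (2 libraries). Both sources were given at the same number of vesicles per cell, and total RNA was taken after 48 h. The comparison covered every gene with a value of at least 10 in at least 2 of the 4 vesicle libraries, which kept 12228 of the 20475 genes in the table. All 12228 were among the 15025 genes tested. The labels do not call the libraries of a group separate cultures. The p-values therefore speak of the variation among these libraries, which may be technical. Nor do the labels say whether the serum was cleared of its own vesicles.

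Extracellular vesicles are membrane particles that cells shed or release from endosomes, and they carry proteins, lipids and RNAs to cells that take them up. Vesicles of tumour cells are known for altering stromal fibroblasts, which build the matrix around a tumour and secrete cytokines, chemokines, growth factors and proteases. Setting them against vesicles of non-tumorigenic cells of the same organ asks what differs between cancer vesicles and vesicles as such, and here both were human vesicles on mouse cells. With a single cell line of each kind, cancer cannot be told apart from other traits of these lines or of their vesicle preparations.

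The 6 libraries held 22451173 to 29315530 reads in genes, and replicates differed beyond counting noise in each group (chi-square per degree of freedom 1.65 to 2.29). All 15 fibroblast markers were measured, with a summed level of 477159 to 491185 normalised reads with MCF10A EVs and 461926 to 473372 with MDA-MB-231 EVs. Of 15 epithelial markers, Krt8 and Tjp3 reached the level rule, the list summed to 49.9 to 51.6 and 50.8 to 63.7, and Epcam, Krt5, Krt18 and Esrp1 had no read in any library. For 13 macrophage and leukocyte markers the sums were 1799.7 to 1853 and 1013 to 1077. Most of that was Cd14, a coreceptor for bacterial lipopolysaccharide, while Emr1, Cd3e, Spi1 and Tyrobp had no read. The sums were 392 to 442 and 249.6 to 270.1 for 12 endothelial markers, and 524 to 538 and 429 to 459 for 9 adipocyte markers. They were 1815 to 1873 and 1765 to 1821 for 9 muscle markers, and 2248 to 2443 and 2927 to 2966 for 9 cartilage and bone markers. Emcn and Erg, Lep and Cidec, Myod1, Myog and Myf5, and Ibsp and Alpl had no read in any library. The part of these markers in the results was not tested.

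Of the 12228 genes, 2497 (20.4%) differed between the vesicle sources at an adjusted p under 0.05, by limma on log2 of the value plus 1 with Benjamini-Hochberg adjustment over all 15025 genes tested. Of these, 1001 were higher with MDA-MB-231 EVs (8.19% of the 12228) and 1496 were lower (12.2%), and "higher" and "lower" have this sense throughout. The counts given below for gene lists are to be read beside these shares. Whether a list departed from them was not tested. Among all 15025 genes 16.9% were called, 6.84% higher and 10.1% lower. Most differences were small, with a median fold of 1.16 among called genes. Changes of at least 1.5-fold numbered 85 higher and 169 lower (2.08% in all, 0.695% and 1.38%), and changes of at least 2-fold 35 and 54 (0.728% in all, 0.286% and 0.442%). The libraries of the sources did not overlap for 7290 genes (59.6%). The split between directions depended on the scaling: 40.1% of called genes were higher with the authors' scaling, 50.8% with quantile scaling and 61.9% with library totals. The median log2 difference of all 12228 genes was -0.0047, and 0.0378 with library totals.

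Single libraries mattered. Below, M1 and M2 stand for the MDA-MB-231 EV libraries and N1 and N2 for the MCF10A EV libraries. Genes called higher numbered 267, 185, 394 and 531 without M1, M2, N1 and N2, and genes called lower 836, 531, 750 and 865. With a prior variance that did not follow the level of the gene, 87 were higher and 235 lower. Each gene named below was refitted in up to 16 alternative settings. A call given without remark held in all of them, and "trend-dependent" means that it was lost when the prior variance did not follow the level and in no other setting. Where leaving out M1, M2, N1 or N2 ended a call, those libraries are named with the highest limma adjusted p that this gave. All such calls but those of Fos and Pgf were also lost without the variance trend, and some in further settings. Differences are on the log2 scale of value plus 1, ± is the standard error, and numbers in parentheses after gene names are log2 differences. Normalised reads are the authors' values, library by library.

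**Figure D1:**
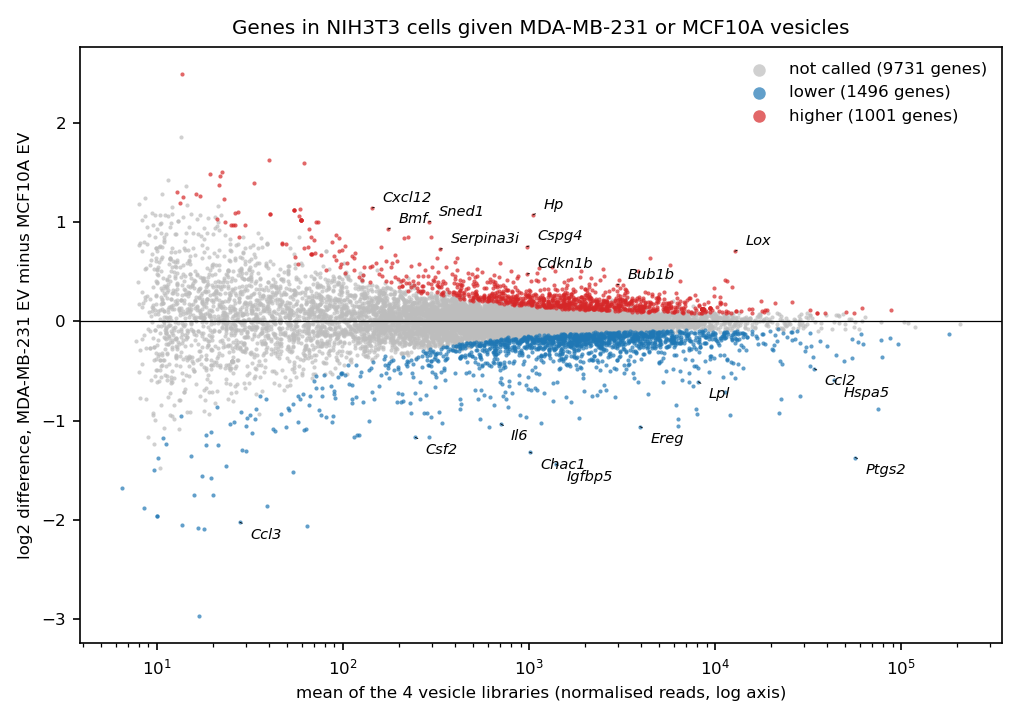
Log2 difference between MDA-MB-231 EV and MCF10A EV libraries (vertical axis) against the mean level in the 4 vesicle libraries (horizontal log axis, normalised reads) for all 12228 genes; red points were higher (1001), blue points lower (1496) and grey points not called. The labelled Ptgs2 and Hspa5 lie below 0 at high levels, and Lox lies above it.

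The genes named first are those with the largest differences at a mean of 100 or more normalised reads. Igfbp5, a secreted binding protein of insulin-like growth factors, measured 2046 and 2029 normalised reads with MCF10A EVs against 811 and 691 with MDA-MB-231 EVs, beside 3365 and 3192 with PBS. Ptgs2, the inducible cyclooxygenase of prostaglandin synthesis, measured 83618 and 79259.6 normalised reads with MCF10A EVs against 33242 and 29703 with MDA-MB-231 EVs, beside 128739 and 128902 with PBS. Chac1, a glutathione-degrading enzyme induced by ATF4, measured 1488 and 1385 normalised reads with MCF10A EVs against 592 and 558 with MDA-MB-231 EVs, beside 1143 and 1039 with PBS. Both MDA-MB-231 EV libraries were the lowest of the 6 for these 3 genes, and Chac1 alone of them was higher with MCF10A EVs than with PBS. Igfbp5 differed by -1.44 ± 0.06 (limma adjusted p = 5.2e-10), Ptgs2 by -1.37 ± 0.04 (limma adjusted p = 6.7e-11) and Chac1 by -1.32 ± 0.06 (limma adjusted p = 1.3e-09). Csf2, the cytokine GM-CSF, measured 335 and 343 normalised reads with MCF10A EVs against 144 and 156 with MDA-MB-231 EVs. Ereg, the EGF receptor ligand epiregulin, measured 5493 and 5163 normalised reads with MCF10A EVs against 2674 and 2433 with MDA-MB-231 EVs. Rgs16, a GTPase activator that turns off G protein signals, measured 8726 and 8389 normalised reads with MCF10A EVs against 4328 and 3925 with MDA-MB-231 EVs. In each case both MDA-MB-231 EV libraries lay below all others, by -1.17 ± 0.11 (limma adjusted p = 5.2e-06), -1.06 ± 0.04 (limma adjusted p = 4.2e-10) and -1.05 ± 0.04 (limma adjusted p = 2.3e-10) against MCF10A EVs. The 12 largest lower genes also included Il6, described below, and Flrt3 (-1.16), Ankk1 (-1.16), Stfa3 (-1.15, trend-dependent), Olr1 (-1.14) and Kcnk10 (-1.07). Flrt3 is a membrane protein of cell adhesion, Stfa3 a cysteine protease inhibitor, Olr1 a scavenger receptor for oxidised lipoprotein, and Kcnk10 a potassium channel.

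Among higher genes, Cxcl12, the chemokine that signals through CXCR4, measured 83.0 and 94.5 normalised reads with MCF10A EVs against 179 and 217 with MDA-MB-231 EVs, beside 88.0 and 87.8 with PBS. Hp, the haemoglobin-binding plasma protein haptoglobin, measured 667 and 682 normalised reads with MCF10A EVs against 1396 and 1449 with MDA-MB-231 EVs, beside 2501 and 2375 with PBS. Sned1, a secreted matrix protein, measured 192 and 189.7 normalised reads with MCF10A EVs against 354 and 417 with MDA-MB-231 EVs, beside 169.6 and 180.5 with PBS. For Cxcl12 and Sned1 the MCF10A EV libraries lay near PBS and the MDA-MB-231 EV libraries above it, while for Hp both sources lay below PBS and MCF10A EVs further. Cxcl12 differed by 1.14 ± 0.15 (limma adjusted p = 8.9e-05), Hp by 1.07 ± 0.05 (limma adjusted p = 6.1e-10) and Sned1 by 1.00 ± 0.11 (limma adjusted p = 1.2e-05). Bmf, a proapoptotic protein, measured 127 and 113 normalised reads with MCF10A EVs against 217 and 242 with MDA-MB-231 EVs, and its PBS values of 227 and 243 lay close to those with MDA-MB-231 EVs. Cspg4, the proteoglycan NG2, measured 712 and 735 normalised reads with MCF10A EVs against 1254 and 1189 with MDA-MB-231 EVs. Serpina3i, a serine protease inhibitor of a clustered family whose copies may share reads, measured 251 and 248 normalised reads with MCF10A EVs against 420.5 and 409 with MDA-MB-231 EVs. Bmf differed by 0.93 ± 0.12 (limma adjusted p = 5.9e-05), Cspg4 by 0.75 ± 0.06 (limma adjusted p = 2.2e-07) and Serpina3i by 0.73 ± 0.09 (limma adjusted p = 3.9e-05). The 12 largest higher genes also included Lox, described with the matrix, and L1cam (0.85, trend-dependent), Nhsl1 (0.85, trend-dependent), Col4a6 (0.84, adjusted p up to 0.078 without M2), Pla2g16 (0.76, adjusted p up to 0.33 without M1, M2 or N2) and Ranbp3l (0.76, adjusted p up to 0.086 without M1 or M2). Of these 12 genes 7 kept their call in every setting, against 11 of the 12 lower ones.

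**Figure D2:**
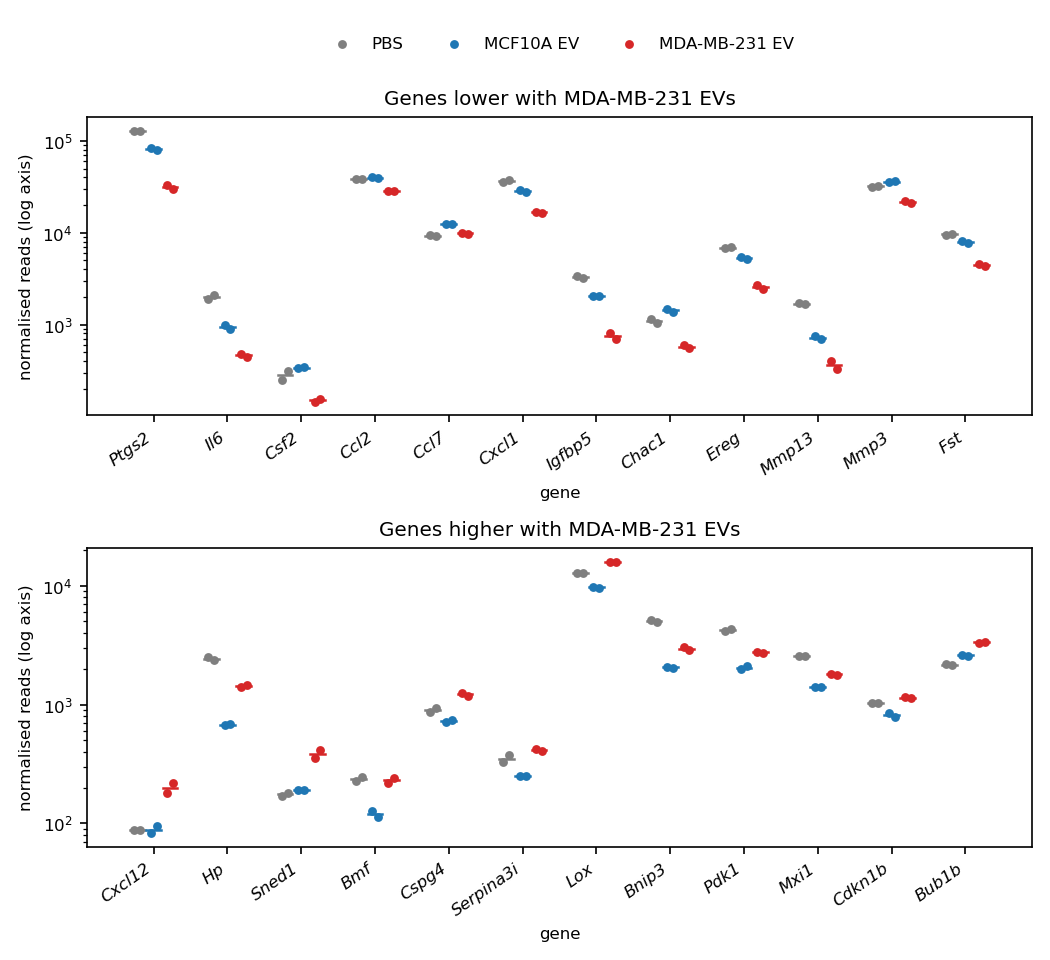
Normalised reads (log axis) of 24 named genes in each of the 6 libraries; each point is a library and each bar the mean of its 2 libraries, for PBS (grey), MCF10A EV (blue) and MDA-MB-231 EV (red). Red points lie below blue ones for the 12 lower genes plotted and over them for the 12 higher genes plotted, such as Il6 (-1.03) and Hp (1.07), while grey points lie on either side.

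The endoplasmic reticulum (ER) folds secreted and membrane proteins with chaperones such as BiP and with protein disulfide isomerases. When unfolded proteins build up, the sensors ATF6, IRE1 and PERK raise these chaperones and the machinery that removes misfolded proteins, on which matrix-secreting fibroblasts depend. Of 28 measured ER chaperones and degradation factors (29 entries), 26 were lower and 0 higher, beside 12.2% lower among all genes. The median difference was -0.35, against -0.0047 over all genes, and all 28 values were below 0. Lower genes numbered 23, 22, 25 and 24 without M1, M2, N1 and N2, and 16 without the variance trend. Hspa5, which encodes BiP, measured 53252 and 50828 normalised reads with MCF10A EVs against 35739.9 and 33161 with MDA-MB-231 EVs, beside 58417 and 57875 with PBS. Hyou1, a nucleotide exchange partner of BiP, measured 7987 and 8036 normalised reads with MCF10A EVs against 5481 and 5148 with MDA-MB-231 EVs, beside 9606 and 9062 with PBS. Creld2, a secreted ER stress protein, measured 3139.9 and 3018 normalised reads with MCF10A EVs against 2045 and 1902 with MDA-MB-231 EVs, beside 3334 and 3195 with PBS. Each was lowest in both MDA-MB-231 EV libraries, with the MCF10A EV libraries a little below PBS. Hspa5 differed by -0.60 ± 0.03 (limma adjusted p = 1.4e-08), Hyou1 by -0.59 ± 0.04 (limma adjusted p = 2.5e-08) and Creld2 by -0.64 ± 0.04 (limma adjusted p = 5.3e-08).

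Lower values ran through folding, disulfide formation and disposal. Sdf2l1, a luminal cochaperone, measured 2349.6 and 2312 normalised reads with MCF10A EVs against 1632 and 1499 with MDA-MB-231 EVs and differed by -0.58 ± 0.04 (limma adjusted p = 2.4e-07). Folding factors that were lower included Pdia4 (-0.52), Pdia6 (-0.35), Hsp90b1 (-0.36), Calr (-0.34) and Manf (-0.50), of which Hsp90b1 is the ER form of HSP90, Calr the lectin calreticulin, and Pdia4 and Pdia6 are disulfide isomerases. Disposal factors that were lower included Herpud1 (-0.46), Syvn1 (-0.47) and Dnajb9 (-0.49, trend-dependent), of which Syvn1 is the ubiquitin ligase HRD1. Of the sensors, Atf6 (-0.30) and Ern1 (-0.36, adjusted p up to 0.1 without M1, M2 or N2) were lower, and so was Xbp1 (-0.17, adjusted p up to 0.1 without M1, M2 or N1), the factor whose messenger IRE1, the product of Ern1, splices. Canx, which encodes the membrane lectin calnexin, differed by -0.06 and was not called (limma adjusted p = 0.14). Ero1l, an ER oxidase that HIF also induces, stood furthest below PBS in the list. It measured 4327 and 4247 normalised reads with MCF10A EVs against 3871 and 3702 with MDA-MB-231 EVs, beside 7611 and 7840.3 with PBS, and differed by -0.18 ± 0.03 (limma adjusted p = 0.0013, adjusted p up to 0.068 without M2).

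Promoters are shown here because 8 of the 21 ER genes with a promoter entry share one sequence element. The ER stress element is CCAAT, any 9 bases and CCACG, an arrangement that NF-Y and ATF6 are known to bind. It was searched on both strands of 300 bases around each gene start, 250 before and 50 after, in RefSeq promoters of build GRCm38.p6. It was found in 0.119% of all 32851 promoters and in 18 of the 9268 genes of this comparison that had an entry (0.194%). A gene with several promoters was counted where any of them held the letters, here and for the motifs below. Of 28 ER genes 21 had an entry, and 8 of these (38.1%) held the element: Hspa5, Hsp90b1, Dnajc3, Pdia6, Calr, Canx, Creld2 and Syvn1. All of them but Canx were lower, including Dnajc3 (-0.31, trend-dependent), an inhibitor of PERK. Over the whole comparison 10 genes with the element were lower and 0 higher, and 7 of the 10 were the ER genes just counted. As 26 of the 28 ER genes were lower, the element did not set the lower members of the list apart. A match describes letters, not binding.

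The promoters of 4 lower genes follow, 5′ to 3′ on the strand of the gene, with CCAAT and CCACG of each match in capitals (CGTGG and ATTGG where the match is on the other strand). Hspa5 lies at chr2:34771840-34772139 on the plus strand, Creld2 at chr15:88819396-88819695 on the plus strand, Hsp90b1 at chr10:86705395-86705694 on the minus strand with 2 matches, and Syvn1 at chr19:6046326-6046625 on the plus strand. The first match begins 65, 126, 212 and 44 bases before the gene start.
Hspa5: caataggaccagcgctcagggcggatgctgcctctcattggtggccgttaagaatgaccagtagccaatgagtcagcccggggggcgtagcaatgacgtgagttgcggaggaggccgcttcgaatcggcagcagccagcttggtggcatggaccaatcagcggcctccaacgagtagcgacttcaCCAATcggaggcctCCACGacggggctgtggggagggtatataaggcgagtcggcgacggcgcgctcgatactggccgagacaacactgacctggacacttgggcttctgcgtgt
Creld2: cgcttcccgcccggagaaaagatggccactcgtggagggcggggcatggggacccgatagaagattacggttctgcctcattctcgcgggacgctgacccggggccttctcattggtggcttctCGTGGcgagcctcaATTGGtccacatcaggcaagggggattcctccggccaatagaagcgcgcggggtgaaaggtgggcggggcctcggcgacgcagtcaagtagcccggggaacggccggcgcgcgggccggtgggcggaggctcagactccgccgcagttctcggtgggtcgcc
Hsp90b1: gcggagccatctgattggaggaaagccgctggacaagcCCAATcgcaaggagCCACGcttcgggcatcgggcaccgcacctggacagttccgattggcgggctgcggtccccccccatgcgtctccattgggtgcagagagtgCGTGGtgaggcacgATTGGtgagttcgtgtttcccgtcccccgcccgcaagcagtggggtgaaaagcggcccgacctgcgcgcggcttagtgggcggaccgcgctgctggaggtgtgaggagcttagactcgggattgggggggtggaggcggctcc
Syvn1: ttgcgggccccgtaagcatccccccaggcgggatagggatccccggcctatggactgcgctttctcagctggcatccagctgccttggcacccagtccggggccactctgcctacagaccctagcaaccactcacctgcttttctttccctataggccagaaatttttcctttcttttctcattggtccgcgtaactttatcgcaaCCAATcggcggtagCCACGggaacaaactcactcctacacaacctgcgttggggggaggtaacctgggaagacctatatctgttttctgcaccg

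The integrated stress response joins PERK, GCN2 and related kinases at the initiation factor eIF2, and its transcription factor ATF4 raises genes of amino acid supply and of recovery from stress. Of 17 measured genes (21 entries), 12 were lower and 0 higher, with a median of -0.38. Lower genes numbered 12, 10, 11 and 11 without M1, M2, N1 and N2, and 6 without the variance trend. Atf4 itself measured 7924 and 7643 normalised reads with MCF10A EVs against 6072 and 5909.8 with MDA-MB-231 EVs, beside 7915 and 7806 with PBS. Trib3, a pseudokinase that feeds back on ATF4, measured 434 and 425 normalised reads with MCF10A EVs against 230.5 and 224 with MDA-MB-231 EVs, beside 509 and 549.9 with PBS. Cth, the enzyme that makes cysteine from cystathionine, measured 453 and 463 normalised reads with MCF10A EVs against 248 and 203 with MDA-MB-231 EVs, beside 403 and 392 with PBS. The MDA-MB-231 EV libraries were the lowest of the 6 for all 3, which differed by -0.38 ± 0.03 (limma adjusted p = 5.1e-07), -0.92 ± 0.08 (limma adjusted p = 1.3e-06) and -1.03 ± 0.10 (limma adjusted p = 2.8e-06). Ppp1r15a, the phosphatase subunit GADD34 that reverses eIF2 phosphorylation, measured 1334 and 1209 normalised reads with MCF10A EVs against 797 and 771 with MDA-MB-231 EVs and differed by -0.70 ± 0.06 (limma adjusted p = 1.1e-06). Others were Ddit3 (-0.62, trend-dependent), Sesn2 (-0.47), Nupr1 (-0.43, trend-dependent), Atf5 (-0.41, trend-dependent) and Asns (-0.32, trend-dependent), where Ddit3 encodes CHOP and Asns asparagine synthetase. Eif4ebp1, Pck2, Stc2, Cebpb and Ddit4 were not called.

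**Figure D3:**
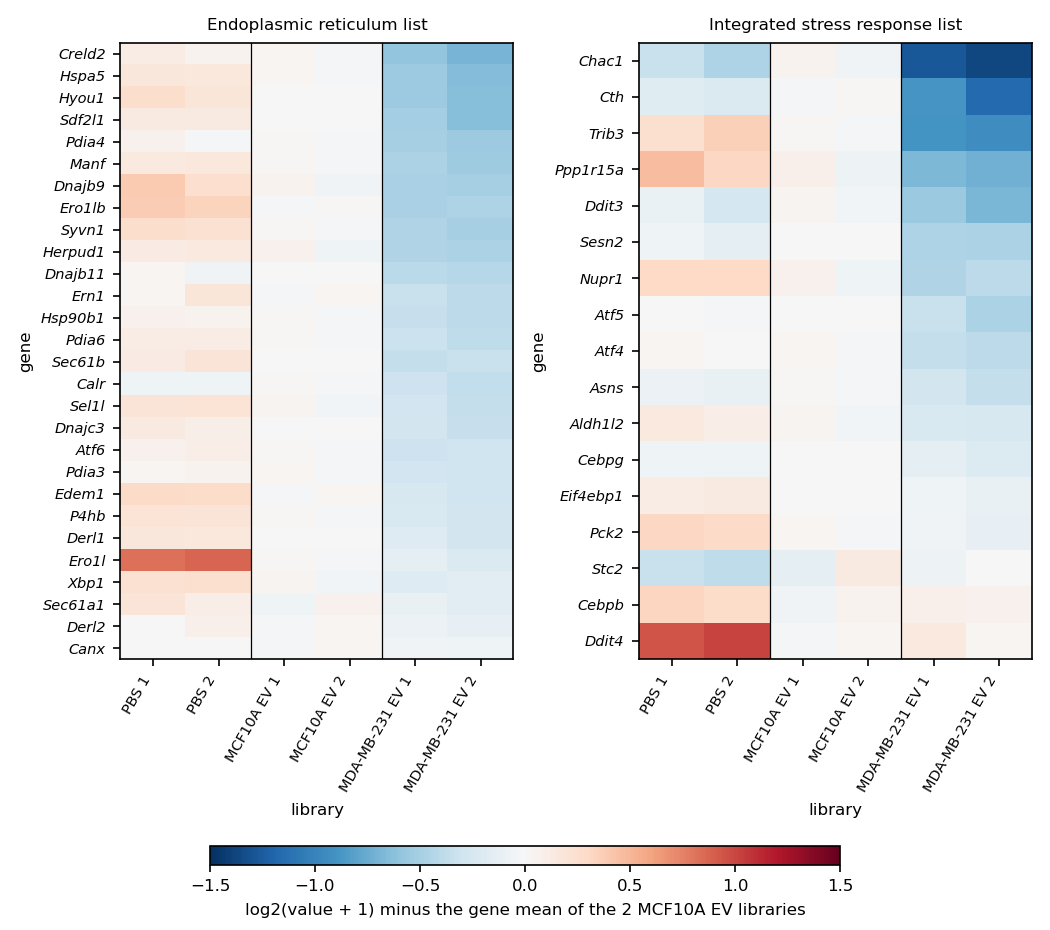
Log2(value + 1) of each member of the ER list (28 genes) and the integrated stress response list (17 genes) in each of the 6 libraries, minus the mean over the 2 MCF10A EV libraries; blue is below that mean and red is over it. Both MDA-MB-231 EV columns are blue for nearly all rows (list medians -0.35 and -0.38), and the PBS columns are pale for most rows, with Ero1l and Ddit4 the reddest.

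Genes that supply amino acids to translation were lower in part. Of 20 cytosolic aminoacyl-tRNA synthetases, which load amino acids onto tRNAs, 14 were lower and 0 higher, with a median of -0.17. Lower genes numbered 12, 7, 9 and 10 without M1, M2, N1 and N2, and 0 without the variance trend. The largest differences were those of Tars (-0.29, trend-dependent), Wars (-0.27, trend-dependent), Aars (-0.26, trend-dependent) and Nars (-0.22, trend-dependent). Of 19 amino acid transporters, 5 were lower and 2 higher (1, 1, 2 and 1 without M1, M2, N1 and N2). Slc6a9, a glycine transporter, measured 653 and 617 normalised reads with MCF10A EVs against 403 and 379.7 with MDA-MB-231 EVs and differed by -0.70 ± 0.06 (limma adjusted p = 2.7e-06). Slc7a1, a carrier of cationic amino acids, measured 4283 and 4189 normalised reads with MCF10A EVs against 3005 and 2904 with MDA-MB-231 EVs and differed by -0.52 ± 0.03 (limma adjusted p = 4.5e-08). Both subunits of the leucine carrier LAT1 were lower, Slc7a5 (-0.35, trend-dependent) and Slc3a2 (-0.31, trend-dependent), and Slc1a3 (0.54, trend-dependent), a glutamate carrier, was higher. Of 17 serine, glycine and one-carbon enzymes, 6 were lower (5, 2, 3 and 5 without M1, M2, N1 and N2) and 2 higher (1, 1, 1 and 2 without M1, M2, N1 and N2). Mthfd2, a mitochondrial folate enzyme that ATF4 induces, measured 2295 and 2308 normalised reads with MCF10A EVs against 1634 and 1544 with MDA-MB-231 EVs, beside 1915 and 1925 with PBS, and differed by -0.53 ± 0.04 (limma adjusted p = 2.5e-07). Ahcy (0.19, trend-dependent), which removes S-adenosylhomocysteine, was higher. Of 21 cytosolic heat shock genes, 5 were lower (4, 3, 3 and 5 without M1, M2, N1 and N2) and 1 higher (0, 0, 1 and 0 without M1, M2, N1 and N2). Hsph1, an HSP110 chaperone, measured 26356 and 26008 normalised reads with MCF10A EVs against 19786 and 19135 with MDA-MB-231 EVs and differed by -0.43 ± 0.03 (limma adjusted p = 6.6e-08), while the HSP90 genes Hsp90aa1 and Hsp90ab1 and the inducible Hspa1a and Hspa1b were not called.

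Fibroblasts answer injury and microbial products through NF-kB, which drives cytokines, chemokines, prostaglandin enzymes and acute-phase proteins along with its own inhibitors. Of 32 measured inflammatory mediators and NF-kB feedback genes (34 entries), 20 were lower and 3 higher, with a median of -0.21. Lower genes numbered 20, 16, 17 and 18 without M1, M2, N1 and N2, and 12 without the variance trend. Il6, the cytokine interleukin 6, measured 985 and 905 normalised reads with MCF10A EVs against 482 and 441 with MDA-MB-231 EVs, beside 1901 and 2072 with PBS. Lif, a cytokine of the same family, measured 15862 and 15613 normalised reads with MCF10A EVs against 8603 and 7781 with MDA-MB-231 EVs, beside 30195 and 31069.8 with PBS. Csf3, the cytokine G-CSF, measured 2917 and 2899 normalised reads with MCF10A EVs against 1755 and 1725 with MDA-MB-231 EVs, beside 3405 and 3443 with PBS. For each of the 3 the order was PBS, MCF10A EVs, MDA-MB-231 EVs from high to low, without overlap. Il6 differed by -1.03 ± 0.06 (limma adjusted p = 2.5e-08), Lif by -0.94 ± 0.04 (limma adjusted p = 4.2e-10) and Csf3 by -0.74 ± 0.03 (limma adjusted p = 1.5e-09). Other interleukin genes that were lower were Il1a (-0.93), Il1b (-1.0), Il33 (-0.71) and Il11 (-0.74, adjusted p up to 0.086 without M2). Cd14 measured 1733 and 1689 normalised reads with MCF10A EVs against 1008 and 946 with MDA-MB-231 EVs, beside 3038 and 2946 with PBS, and differed by -0.81 ± 0.04 (limma adjusted p = 7.8e-09). The leukocyte adhesion receptor Vcam1 (-0.51) was lower. Inhibitors that NF-kB induces were lower too: Tnfaip3 (-0.54) and Nfkbia (-0.18, adjusted p up to 0.12 without M2, N1 or N2), which encode A20 and IκBα. The 3 higher genes encode acute-phase proteins: Hp, Lcn2 and Saa3. Lcn2, an iron-siderophore carrier, measured 342 and 336 normalised reads with MCF10A EVs against 488 and 425 with MDA-MB-231 EVs, beside 1229 and 1159 with PBS. Saa3, a serum amyloid A protein, measured 8575 and 8738 normalised reads with MCF10A EVs against 10929 and 10966 with MDA-MB-231 EVs, beside 21614 and 23099 with PBS. Both lay far below PBS with either source and lowest with MCF10A EVs. Lcn2 differed by 0.43 ± 0.07 (limma adjusted p = 8.5e-04, trend-dependent) and Saa3 by 0.34 ± 0.03 (limma adjusted p = 2.9e-06, trend-dependent).

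Of 11 chemokines that reached the level rule (23 entries), 5 were lower and 2 higher (1, 2, 1 and 1 without M1, M2, N1 and N2). Ccl2, which draws monocytes through CCR2, measured 40263 and 39091 normalised reads with MCF10A EVs against 28719 and 28276 with MDA-MB-231 EVs, beside 38737 and 38884 with PBS. Ccl7, a related monocyte chemokine, measured 12495 and 12383 normalised reads with MCF10A EVs against 9972 and 9748 with MDA-MB-231 EVs, beside 9365 and 9108 with PBS. Cxcl1, which draws neutrophils, measured 29229.7 and 27801 normalised reads with MCF10A EVs against 16941 and 16313 with MDA-MB-231 EVs, beside 35813 and 37500.1 with PBS. With MCF10A EVs Ccl2 lay near PBS and Ccl7 above it, and Cxcl1 lay below PBS with both sources. Ccl2 differed by -0.48 ± 0.03 (limma adjusted p = 9.3e-09), Ccl7 by -0.34 ± 0.03 (limma adjusted p = 8.1e-07) and Cxcl1 by -0.78 ± 0.03 (limma adjusted p = 5.3e-10). Ccl3, a macrophage inflammatory protein, had a large difference on few reads: it measured 43.1 and 47.6 normalised reads with MCF10A EVs against 11.2 and 9.62 with MDA-MB-231 EVs and differed by -2.03 ± 0.24 (limma adjusted p = 2.8e-05). The remaining calls were Ccl9 (-0.78, trend-dependent), which was lower, and Cxcl12 and Ccl8 (0.35, adjusted p up to 0.14 without M1, N1 or N2), which were higher.

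Prostaglandin E2 is made from arachidonic acid that phospholipase A2 frees, by the cyclooxygenases and then a terminal synthase, and it acts through receptors of the PTGER family. Of 14 measured genes, 7 were lower and 0 higher, with a median of -0.17. Lower genes numbered 7, 7, 7 and 7 without M1, M2, N1 and N2, and 5 without the variance trend. Pla2g4a, the cytosolic phospholipase A2, measured 8914 and 8499.8 normalised reads with MCF10A EVs against 5846 and 5564 with MDA-MB-231 EVs and differed by -0.61 ± 0.03 (limma adjusted p = 9.0e-09). Ptges, the inducible terminal synthase, measured 6369.5 and 6367 normalised reads with MCF10A EVs against 4634 and 4389.6 with MDA-MB-231 EVs and differed by -0.50 ± 0.03 (limma adjusted p = 4.4e-08). Ptger2, a receptor of prostaglandin E2, measured 405 and 337 normalised reads with MCF10A EVs against 196 and 193 with MDA-MB-231 EVs and differed by -0.92 ± 0.10 (limma adjusted p = 8.3e-06). With Ptgs2, genes of each step of the route were lower, from substrate release to receptor. The terminal synthases Ptges2 and Ptges3 and the receptors Ptger1, Ptger4, Ptgfr and Ptgir were not called. Of 9 complement genes, 1 was lower and 3 were higher (1, 0, 3 and 1 without M1, M2, N1 and N2). The lower one was Cd55, a membrane protein that dissociates complement convertases. It measured 8750.3 and 7980.5 normalised reads with MCF10A EVs against 4342 and 4107 with MDA-MB-231 EVs and differed by -0.98 ± 0.04 (limma adjusted p = 5.3e-10). Mice carry a near-identical copy, so its reads are uncertain.

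AP-1, a dimer of FOS and JUN family factors, acts with NF-kB on many of these genes and on metalloproteinases. Its core site TGACTCA, searched on both strands, was in 5.2% of all promoters and was found for 4.78% of the compared genes with an entry. Of 24 inflammatory genes with an entry 7 held it (29.2%), and 6 of them were lower: Il6, Lif, Il11, Il1a, Tnfaip3 and Il1rn (-0.42, trend-dependent), which encodes the interleukin 1 receptor antagonist. Of 21 matrix protease and inhibitor genes with an entry 5 held it (23.8%), and all were lower: Mmp3, Mmp10, Mmp13, Plaur and Adam19 (-0.24, trend-dependent). Of 20 immediate early genes with an entry 0 held it. Of 25 NRF2 antioxidant and glutathione genes with an entry 6 held it (24%), and 5 of these were lower. Among all 443 compared genes with the site, 80 were lower and 30 higher. Lower genes made up 62.5% of the whole inflammatory list and 48.5% of the whole protease and inhibitor list. Whether the site set lower members of a list apart was not tested.

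The promoters of Il6, Mmp13 and Mmp3 are shown with the AP-1 core in capitals (TGAGTCA where the match is on the other strand), as members of these lists that were lower and hold it. Il6 lies at chr5:30012864-30013163 on the plus strand, Mmp13 at chr9:7272264-7272563 on the plus strand and Mmp3 at chr9:7445572-7445871 on the plus strand. The match begins 249, 35 and 46 bases before the gene start.
Il6: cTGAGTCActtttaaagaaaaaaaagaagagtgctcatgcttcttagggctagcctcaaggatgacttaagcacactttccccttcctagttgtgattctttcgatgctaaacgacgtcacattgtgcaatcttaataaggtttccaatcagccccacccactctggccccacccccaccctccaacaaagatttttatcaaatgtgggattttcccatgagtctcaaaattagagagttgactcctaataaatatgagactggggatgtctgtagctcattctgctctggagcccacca
Mmp13: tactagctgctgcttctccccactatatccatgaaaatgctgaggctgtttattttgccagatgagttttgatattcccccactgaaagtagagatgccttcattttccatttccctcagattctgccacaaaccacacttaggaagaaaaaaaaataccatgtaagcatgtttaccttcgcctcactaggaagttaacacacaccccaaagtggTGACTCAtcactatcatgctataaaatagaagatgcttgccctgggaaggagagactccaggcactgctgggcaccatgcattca
Mmp3: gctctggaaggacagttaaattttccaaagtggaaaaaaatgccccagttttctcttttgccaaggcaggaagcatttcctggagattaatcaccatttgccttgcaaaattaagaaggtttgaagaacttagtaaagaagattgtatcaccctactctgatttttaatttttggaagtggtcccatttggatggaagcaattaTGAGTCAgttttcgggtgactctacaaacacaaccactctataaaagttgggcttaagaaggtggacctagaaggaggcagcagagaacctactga

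Immediate early genes are transcription factors and regulators that growth factors switch on without new protein synthesis. Of 25 measured, 14 were lower and 0 higher, with a median of -0.22. Lower genes numbered 8, 7, 8 and 10 without M1, M2, N1 and N2, and 7 without the variance trend. Ier3, an inducible regulator of survival, measured 10332 and 10076 normalised reads with MCF10A EVs against 5849 and 5233 with MDA-MB-231 EVs and differed by -0.88 ± 0.04 (limma adjusted p = 1.5e-09). Nr4a3, an orphan nuclear receptor, measured 307 and 302 normalised reads with MCF10A EVs against 179 and 191 with MDA-MB-231 EVs and differed by -0.72 ± 0.08 (limma adjusted p = 2.3e-05). Its relatives Nr4a2 (-0.69) and Nr4a1 (-0.62) and the zinc finger factor Egr3 (-0.82) were lower as well. Of the AP-1 families Fosb (-0.74, adjusted p up to 0.088 without M2 or N2), Fos (-0.56, adjusted p up to 0.076 without M1, M2, N1 or N2) and Atf3 (-0.64, adjusted p up to 0.081 without M1, M2 or N1) were lower. Jun measured 4166 and 4053 normalised reads with MCF10A EVs against 4073 and 3849 with MDA-MB-231 EVs, differed by -0.05 and was not called (limma adjusted p = 0.37), and Egr1 differed by -0.15 and was not called (limma adjusted p = 0.062).

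Ligands of the EGF receptor and feedback inhibitors of the MAP kinases belong to the same signalling route. Of 25 measured, 11 were lower and 0 higher, with a median of -0.13. Lower genes numbered 10, 8, 10 and 8 without M1, M2, N1 and N2, and 4 without the variance trend. Hbegf, a heparin-binding ligand of the EGF receptor, measured 384 and 378 normalised reads with MCF10A EVs against 233 and 249 with MDA-MB-231 EVs and differed by -0.66 ± 0.08 (limma adjusted p = 4.8e-05). Phlda1, a gene induced by growth factors, measured 2723 and 2767 normalised reads with MCF10A EVs against 1722 and 1545 with MDA-MB-231 EVs and differed by -0.75 ± 0.05 (limma adjusted p = 2.5e-08). Spry2, an inhibitor of receptor tyrosine kinase signals, measured 1314 and 1361 normalised reads with MCF10A EVs against 959.6 and 886 with MDA-MB-231 EVs and differed by -0.54 ± 0.05 (limma adjusted p = 2.0e-06). With Ereg, 2 ligands of the receptor were thus lower, and so were the receptor, Egfr (-0.34, adjusted p up to 0.12 without M2 or N2), and the phosphatases Dusp4 (-0.40, trend-dependent), Dusp6 (-0.33, trend-dependent) and Dusp1 (-0.33, trend-dependent), which switch off MAP kinases.

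Fibroblasts build the extracellular matrix from collagens, proteoglycans and adhesive glycoproteins, cross-link it with lysyl oxidases and cut it with metalloproteinases and plasminogen activators. Of 21 measured collagen chains, 12 were lower and 4 higher (3, 0, 3 and 2 without M1, M2, N1 and N2), with a median of -0.16. Lower genes numbered 12, 7, 9 and 11 without M1, M2, N1 and N2, and 3 without the variance trend. Col5a3, a chain of a minor fibrillar collagen, measured 881 and 814 normalised reads with MCF10A EVs against 557 and 551 with MDA-MB-231 EVs and differed by -0.61 ± 0.05 (limma adjusted p = 1.9e-06). Col12a1, which coats fibrils, measured 15416 and 14917 normalised reads with MCF10A EVs against 11375 and 11126 with MDA-MB-231 EVs and differed by -0.43 ± 0.03 (limma adjusted p = 8.1e-08). Col3a1, a major fibrillar chain, measured 6882 and 6889 normalised reads with MCF10A EVs against 5464 and 5434 with MDA-MB-231 EVs, beside 3962 and 3973 with PBS, and differed by -0.34 ± 0.03 (limma adjusted p = 1.1e-06). Col3a1 was thus above PBS with both sources and more so with MCF10A EVs. The chains of type I collagen, the bulk of fibroblast matrix, showed small values: Col1a1 measured 51133 and 50718 normalised reads with MCF10A EVs against 49252 and 47161 with MDA-MB-231 EVs, differed by -0.08 and was not called (limma adjusted p = 0.063), and Col1a2 (0.11, adjusted p up to 0.14 without M1, M2 or N2) was higher. Of the type IV chains of basement membranes Col4a1 (-0.13, adjusted p up to 0.055 without M2) and Col4a2 (-0.17, trend-dependent) were lower, and Col4a6 (0.84, adjusted p up to 0.078 without M2) and Col4a5 (0.43, adjusted p up to 0.061 without M2) higher.

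Lox, the lysyl oxidase that starts collagen and elastin cross-links, measured 9822 and 9545 normalised reads with MCF10A EVs against 15839 and 15801 with MDA-MB-231 EVs, beside 12777 and 12879 with PBS. Plod2, the lysyl hydroxylase for stable cross-links, measured 1372 and 1403 normalised reads with MCF10A EVs against 1785 and 1716 with MDA-MB-231 EVs, beside 2371 and 2344 with PBS. Both were lowest with MCF10A EVs, and Lox was highest with MDA-MB-231 EVs while Plod2 was highest with PBS. Lox differed by 0.71 ± 0.03 (limma adjusted p = 2.3e-10) and Plod2 by 0.33 ± 0.04 (limma adjusted p = 3.2e-05). Of the 19 genes of collagen modification, 3 were higher (2, 2, 2 and 2 without M1, M2, N1 and N2) and 7 lower (4, 3, 3 and 4 without M1, M2, N1 and N2). Adamts14, a procollagen N-proteinase, measured 626 and 620.2 normalised reads with MCF10A EVs against 460.0 and 442 with MDA-MB-231 EVs and differed by -0.47 ± 0.06 (limma adjusted p = 8.3e-05), and the collagen chaperone Serpinh1 (-0.16, adjusted p up to 0.091 without M2 or N1) was lower.

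Of 33 matrix glycoproteins and proteoglycans, 12 were lower (10, 11, 10 and 12 without M1, M2, N1 and N2) and 7 higher (5, 5, 4 and 5 without M1, M2, N1 and N2). Tnc, the injury-linked matrix protein tenascin C, measured 99279.9 and 95886 normalised reads with MCF10A EVs against 54940.1 and 50932 with MDA-MB-231 EVs, beside 124591 and 124421 with PBS. Dcn, the collagen-binding proteoglycan decorin, measured 38565 and 35808 normalised reads with MCF10A EVs against 27785 and 26621 with MDA-MB-231 EVs, beside 51006 and 51079 with PBS. Cyr61, a matricellular target of YAP, measured 9281 and 9267 normalised reads with MCF10A EVs against 6158 and 5697 with MDA-MB-231 EVs, beside 8439 and 8369 with PBS. Tenascin C and decorin were highest with PBS and lowest with MDA-MB-231 EVs. Tnc differed by -0.88 ± 0.03 (limma adjusted p = 2.3e-10), Dcn by -0.45 ± 0.03 (limma adjusted p = 2.5e-07) and Cyr61 by -0.65 ± 0.03 (limma adjusted p = 7.0e-09). Thbs1 (-0.36), Lum (-0.34) and Sparc (-0.18, trend-dependent) were lower as well, which encode thrombospondin 1, lumican and osteonectin. The fibronectin gene Fn1 (-0.13, adjusted p up to 0.12 without M1, M2 or N1) was lower, but its difference was 0.03 with quantile scaling. Prelp, a small leucine-rich proteoglycan, measured 2146 and 2076 normalised reads with MCF10A EVs against 2944 and 2878 with MDA-MB-231 EVs and differed by 0.46 ± 0.03 (limma adjusted p = 2.4e-07).

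Of 33 matrix proteases and inhibitors, 16 were lower and 3 higher (0, 0, 0 and 1 without M1, M2, N1 and N2), with a median of -0.12. Lower genes numbered 12, 9, 11 and 10 without M1, M2, N1 and N2, and 5 without the variance trend. Mmp3, the metalloproteinase stromelysin, measured 35995 and 36166 normalised reads with MCF10A EVs against 21907 and 20843 with MDA-MB-231 EVs, beside 31678 and 32208 with PBS. Mmp13, an interstitial collagenase, measured 745 and 699 normalised reads with MCF10A EVs against 399 and 330.2 with MDA-MB-231 EVs, beside 1714 and 1653 with PBS. Mmp10, another stromelysin, measured 3006 and 2928 normalised reads with MCF10A EVs against 1835 and 1803 with MDA-MB-231 EVs, beside 3077 and 3146 with PBS. Mmp3 was above PBS with MCF10A EVs and below it with MDA-MB-231 EVs, while Mmp13 was below PBS with both. Mmp3 differed by -0.76 ± 0.03 (limma adjusted p = 2.3e-10), Mmp13 by -0.99 ± 0.08 (limma adjusted p = 3.5e-07) and Mmp10 by -0.71 ± 0.04 (limma adjusted p = 3.8e-09). Adam12, a membrane metalloprotease of activated fibroblasts, measured 557 and 518 normalised reads with MCF10A EVs against 329 and 296 with MDA-MB-231 EVs and differed by -0.78 ± 0.08 (limma adjusted p = 7.1e-06). Of the plasminogen activator genes 2 lower ones were Plau (-0.70, trend-dependent) and Plaur (-0.72, trend-dependent), which encode urokinase and its receptor. The metalloproteinase inhibitor Timp1 (-0.25, trend-dependent) was lower as well.

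Of 24 integrin and laminin subunits, 10 were lower (8, 4, 8 and 11 without M1, M2, N1 and N2) and 1 was higher (0, 0, 0 and 2 without M1, M2, N1 and N2). Itgb3, the beta subunit of the vitronectin receptor, measured 1560.3 and 1686 normalised reads with MCF10A EVs against 1103 and 1013 with MDA-MB-231 EVs and differed by -0.62 ± 0.05 (limma adjusted p = 6.5e-07). Of the fibronectin receptor Itga5 (-0.20, trend-dependent) and Itgb1 (-0.17, adjusted p up to 0.092 without M2) were lower, and the higher subunit was Itgb8 (0.82, adjusted p up to 0.12 without M1, M2 or N1). Contractile genes mark the myofibroblast state, for which smooth muscle actin is the usual sign. Its gene Acta2 measured 2467 and 2304 normalised reads with MCF10A EVs against 1936 and 1903 with MDA-MB-231 EVs, beside 1606 and 1395 with PBS, and differed by -0.31 ± 0.06 (limma adjusted p = 0.0012, adjusted p up to 0.14 without M1, M2 or N1). Acta2 was thus above PBS with both sources and highest with MCF10A EVs. Of 24 contractile and cytoskeletal genes, 7 were lower (7, 3, 4 and 6 without M1, M2, N1 and N2), led by Csrp1 (-0.38), and 1 was higher (0, 0, 0 and 1 without M1, M2, N1 and N2). Of 16 surface markers of fibroblasts and mesenchymal cells, 6 were higher (4, 4, 5 and 6 without M1, M2, N1 and N2) and 5 lower (3, 3, 4 and 4 without M1, M2, N1 and N2). Ly6c1 measured 1195 and 1086 normalised reads with MCF10A EVs against 1605 and 1628 with MDA-MB-231 EVs and differed by 0.50 ± 0.05 (limma adjusted p = 4.5e-06), and the PDGF receptors Pdgfra (0.19, trend-dependent) and Pdgfrb (0.18, trend-dependent) were higher. Pdpn, podoplanin, measured 12813 and 13293 normalised reads with MCF10A EVs against 10224 and 9732 with MDA-MB-231 EVs and differed by -0.39 ± 0.03 (limma adjusted p = 5.5e-07). Cd44, the hyaluronan receptor, measured 12808 and 13267 normalised reads with MCF10A EVs against 10118 and 9921 with MDA-MB-231 EVs and differed by -0.38 ± 0.03 (limma adjusted p = 2.3e-07).

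**Figure D4:**
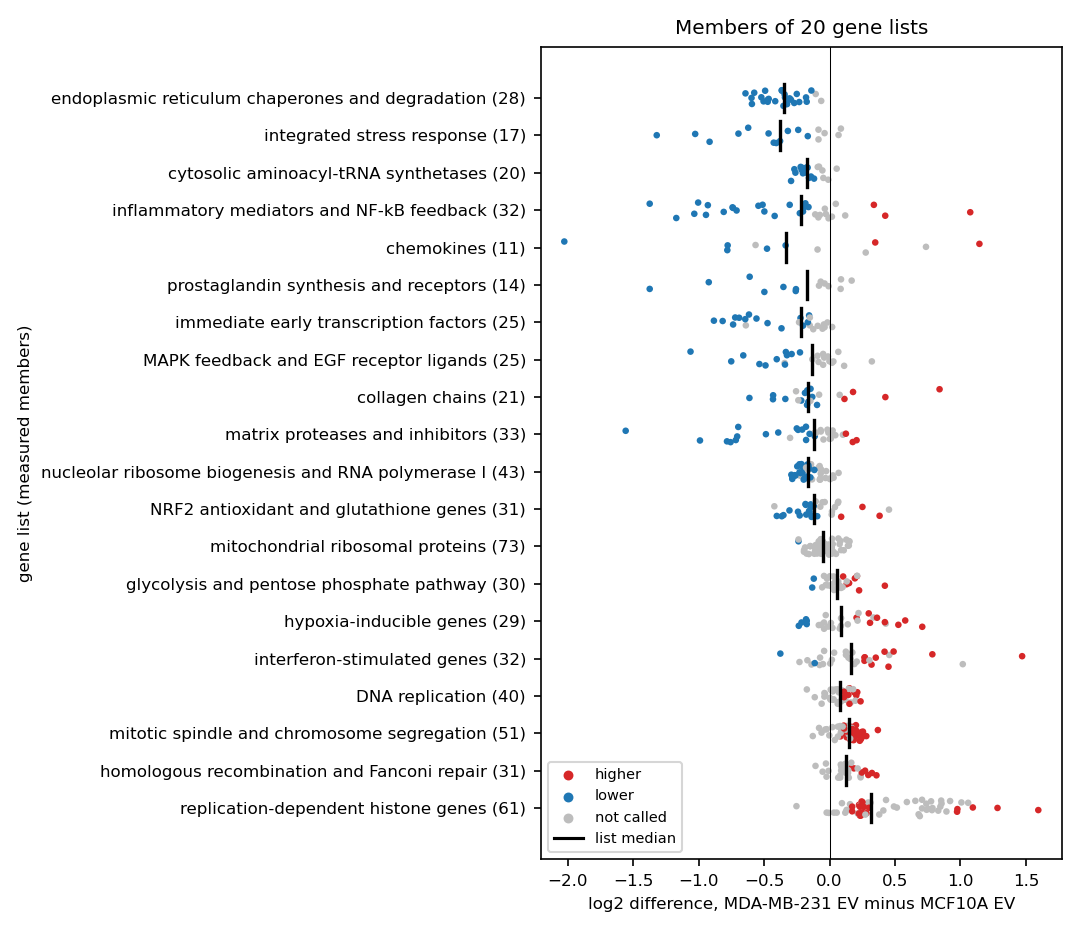
Log2 difference between MDA-MB-231 EV and MCF10A EV libraries for each measured member of 20 gene lists (number of members in parentheses); red points were higher, blue lower and grey not called, and black bars are list medians. All 28 members of the ER list lie left of 0 (median -0.35), and the mitotic members lie mostly right of it (median 0.15).

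Growth factor genes differed in both directions. Of 13 genes of the insulin-like growth factor system, 7 were lower (4, 4, 5 and 5 without M1, M2, N1 and N2), led by Igfbp5, and 2 higher (0, 0, 0 and 2 without M1, M2, N1 and N2). Stc1, stanniocalcin 1, a secreted inhibitor of the IGFBP-cutting enzyme PAPP-A, measured 28185 and 29656 normalised reads with MCF10A EVs against 15622 and 14918 with MDA-MB-231 EVs, beside 47883 and 47291 with PBS, and differed by -0.92 ± 0.03 (limma adjusted p = 9.7e-11). Of 20 secreted growth and angiogenic factors, 9 were lower (6, 5, 6 and 8 without M1, M2, N1 and N2) and 4 higher (2, 2, 3 and 2 without M1, M2, N1 and N2). Angptl4, a secreted inhibitor of lipoprotein lipase, measured 1295 and 1356 normalised reads with MCF10A EVs against 857 and 807 with MDA-MB-231 EVs, beside 937 and 911 with PBS. Vegfa, the main angiogenic factor, measured 6625 and 6587 normalised reads with MCF10A EVs against 5638 and 5589.7 with MDA-MB-231 EVs, beside 14863 and 14998 with PBS. Angptl4 stood above PBS with MCF10A EVs and below it with MDA-MB-231 EVs, whereas Vegfa was below PBS with both. Angptl4 differed by -0.67 ± 0.05 (limma adjusted p = 3.5e-07) and Vegfa by -0.23 ± 0.03 (limma adjusted p = 2.4e-05, trend-dependent). Pgf (-0.75, adjusted p up to 0.074 without M1, M2 or N1) and Bdnf (-0.27) were lower, which encode placental growth factor and the brain-derived neurotrophic factor. Figf, which encodes VEGF-D, measured 653 and 646 normalised reads with MCF10A EVs against 818 and 789 with MDA-MB-231 EVs and differed by 0.31 ± 0.06 (limma adjusted p = 0.0019).

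Fst, the activin antagonist follistatin, measured 8193 and 7702 normalised reads with MCF10A EVs against 4555 and 4292 with MDA-MB-231 EVs, beside 9434 and 9703 with PBS, and differed by -0.85 ± 0.04 (limma adjusted p = 7.8e-10). Of 34 TGF-beta and BMP pathway genes, 9 were higher (4, 3, 4 and 7 without M1, M2, N1 and N2) and 8 lower (8, 5, 7 and 7 without M1, M2, N1 and N2). The receptor gene Tgfbr1 measured 1682 and 1683 normalised reads with MCF10A EVs against 2109 and 2172 with MDA-MB-231 EVs and differed by 0.35 ± 0.04 (limma adjusted p = 1.4e-05). The activin subunit Inhba (-0.44, adjusted p up to 0.058 without M2) and the TGF-beta-induced matrix protein Tgfbi (-0.38, trend-dependent) were lower. Of 25 YAP and TEAD targets and factors, 4 were lower, among them Cyr61 and F3 (-0.35, trend-dependent) and Ankrd1 (-0.33, trend-dependent), and 2 higher (2, 1, 2 and 2 without M1, M2, N1 and N2), Tead2 (0.32, trend-dependent) and Tead3 (0.23, adjusted p up to 0.068 without M2). These shares lay near those of all genes, 12.2% lower and 8.19% higher. Ctgf, another classical target, measured 13.1 and 25.02 normalised reads with MCF10A EVs against 19.3 and 19.2 with MDA-MB-231 EVs, differed by 0.08 and was not called (limma adjusted p = 0.94). Of 15 Notch and Hedgehog genes, 2 were higher (1, 1, 1 and 3 without M1, M2, N1 and N2) and 1 lower. Gas1, a Hedgehog coreceptor that is high in growth arrest, measured 4453 and 4725 normalised reads with MCF10A EVs against 6827 and 6778 with MDA-MB-231 EVs, beside 5085 and 4879 with PBS, and differed by 0.57 ± 0.03 (limma adjusted p = 2.6e-08). Boc, another coreceptor, measured 491 and 469.8 normalised reads with MCF10A EVs against 373 and 371 with MDA-MB-231 EVs and differed by -0.37 ± 0.07 (limma adjusted p = 0.0014). WNT genes gave 3 higher (0, 1, 0 and 0 without M1, M2, N1 and N2) and 2 lower (0, 0, 0 and 1 without M1, M2, N1 and N2) of 23, led by Rspo2 (0.72, adjusted p up to 0.12 without M1, N1 or N2), an enhancer of WNT signals. The WNT shares (13.0% higher and 8.70% lower) likewise lay near those of all genes. Of 33 axon guidance genes, 5 were higher (3, 1, 3 and 5 without M1, M2, N1 and N2) and 8 lower (8, 5, 7 and 7 without M1, M2, N1 and N2). Nrp1, a coreceptor of VEGF and semaphorins, measured 5608 and 5324 normalised reads with MCF10A EVs against 3216 and 3368 with MDA-MB-231 EVs and differed by -0.73 ± 0.03 (limma adjusted p = 2.2e-09), and Sema7a (-0.92, trend-dependent) was lower while Sema3f (0.60, adjusted p up to 0.075 without M2) was higher. Of 12 neurotrophic and neural adhesion genes, 4 were lower and 3 higher (1, 1, 1 and 3 without M1, M2, N1 and N2). Gap43, a growth cone protein, measured 856 and 819 normalised reads with MCF10A EVs against 481 and 449 with MDA-MB-231 EVs and differed by -0.85 ± 0.06 (limma adjusted p = 1.6e-07). In the retinoid pathway, 4 of 12 genes were lower (2, 1, 3 and 2 without M1, M2, N1 and N2), led by Stra6, a vitamin A carrier, which measured 952 and 861 normalised reads with MCF10A EVs against 571 and 505 with MDA-MB-231 EVs and differed by -0.75 ± 0.07 (limma adjusted p = 2.9e-06).

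Cell cycle genes differed by small amounts. Dividing cells raise replication genes in S phase and spindle and cytokinesis genes in G2 and M, and the latter are held by the DREAM and MuvB complexes through the cell cycle homology region of their promoters. Of 51 mitotic spindle and segregation genes, 29 were higher and 0 lower, beside 8.19% higher among all genes, with a median of 0.15. Higher genes numbered 7, 7, 10 and 18 without M1, M2, N1 and N2, and 1 without the variance trend. Bub1b, the spindle checkpoint kinase BUBR1, measured 2605 and 2572 normalised reads with MCF10A EVs against 3318 and 3369 with MDA-MB-231 EVs, beside 2185 and 2155 with PBS. Ccnb2, cyclin B2, measured 1002 and 981 normalised reads with MCF10A EVs against 1189 and 1195 with MDA-MB-231 EVs, beside 1021 and 967 with PBS. Mki67, the proliferation antigen, measured 19361 and 20009 normalised reads with MCF10A EVs against 22457 and 22292 with MDA-MB-231 EVs, beside 15399.6 and 16237 with PBS. For Bub1b and Mki67 the order was PBS, MCF10A EVs, MDA-MB-231 EVs from low to high, and for Ccnb2 the PBS and MCF10A EV libraries overlapped. Bub1b differed by 0.37 ± 0.03 (limma adjusted p = 2.6e-06), Ccnb2 by 0.27 ± 0.05 (limma adjusted p = 0.0014, adjusted p up to 0.061 without M2) and Mki67 by 0.18 ± 0.03 (limma adjusted p = 5.3e-04, adjusted p up to 0.062 without M1 or M2). The kinesin Kif15 (0.28, adjusted p up to 0.18 without M1, M2 or N1) and the kinetochore protein Cenpf (0.26, adjusted p up to 0.082 without M1 or M2) were higher. Cdk1 (0.04, limma adjusted p = 0.55) and Ccnb1 (-0.02, adjusted p = 0.75), the core of mitotic entry, were not called.

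The cell cycle homology region TTTGAA, searched on both strands, was in 17.9% of all promoters and was found for 14.3% of the compared genes with an entry. Of 43 mitotic genes with an entry, 34 held it (79.1%), of which 19 were higher and the others not called. The whole mitotic list had a similar share of higher genes (29 of 51, 56.9%), so the motif did not set the higher members apart. CCAAT, which often stands near it, was found for 72.1% of mitotic genes with an entry and 44.2% of all compared genes with one, while 37.4% of all promoters held it. Among called genes with an entry, TTTGAA was found for 150 of 711 higher ones (21.1%) and 158 of 1142 lower ones (13.8%).

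The promoters of Bub1b, Ccnb2 and Kif15, 3 of the mitotic genes with the largest differences, are shown with each TTTGAA in capitals (TTCAAA where the match is on the other strand). Bub1b lies at chr2:118597961-118598260 on the plus strand, Ccnb2 at chr9:70421505-70421804 on the minus strand and Kif15 at chr9:122950831-122951130 on the plus strand, and they hold 1, 2 and 2 matches. The match of Bub1b begins 40 bases after the gene start. The first matches of Ccnb2 and Kif15 begin 167 and 234 bases before it.
Bub1b: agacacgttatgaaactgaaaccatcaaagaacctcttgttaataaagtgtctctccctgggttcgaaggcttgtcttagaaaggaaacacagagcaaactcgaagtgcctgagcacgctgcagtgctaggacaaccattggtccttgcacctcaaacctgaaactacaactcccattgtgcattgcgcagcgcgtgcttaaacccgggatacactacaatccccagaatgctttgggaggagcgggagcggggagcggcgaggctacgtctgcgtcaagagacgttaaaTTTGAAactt
Ccnb2: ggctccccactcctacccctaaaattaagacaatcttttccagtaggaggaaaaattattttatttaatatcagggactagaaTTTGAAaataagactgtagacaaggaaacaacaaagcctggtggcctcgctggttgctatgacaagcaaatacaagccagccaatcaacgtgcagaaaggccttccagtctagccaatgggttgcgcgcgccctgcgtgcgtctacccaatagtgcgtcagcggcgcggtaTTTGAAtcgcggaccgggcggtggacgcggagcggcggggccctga
Kif15: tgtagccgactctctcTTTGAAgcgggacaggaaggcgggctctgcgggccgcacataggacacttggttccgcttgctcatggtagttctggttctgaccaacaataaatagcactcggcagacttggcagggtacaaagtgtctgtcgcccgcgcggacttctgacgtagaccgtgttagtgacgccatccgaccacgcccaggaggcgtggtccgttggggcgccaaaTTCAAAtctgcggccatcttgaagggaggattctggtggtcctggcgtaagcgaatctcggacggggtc

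Of 40 DNA replication genes, 9 were higher and 0 lower, with a median of 0.08. Higher genes numbered 1, 2, 4 and 6 without M1, M2, N1 and N2, and 0 without the variance trend. Mcm7, a subunit of the replicative helicase, measured 3765 and 3776 normalised reads with MCF10A EVs against 4436 and 4299.6 with MDA-MB-231 EVs, beside 3059 and 3073 with PBS, and differed by 0.21 ± 0.03 (limma adjusted p = 2.9e-04, trend-dependent). Uhrf1 (0.24, adjusted p up to 0.08 without M1 or M2), which guides maintenance of DNA methylation, was higher. Of 31 homologous recombination and Fanconi genes, 7 were higher and 0 lower, with a median of 0.13. Higher genes numbered 2, 0, 2 and 4 without M1, M2, N1 and N2, and 0 without the variance trend. They included Bard1 (0.36, adjusted p up to 0.21 without M1, M2 or N1), Brca2 (0.32, adjusted p up to 0.061 without M2) and Brip1 (0.30, adjusted p up to 0.078 without M2). Nucleotide supply enzymes gave 4 higher (0, 1, 2 and 1 without M1, M2, N1 and N2) and 1 lower (0, 0, 0 and 0 without M1, M2, N1 and N2) of 32. Replication-dependent histone messengers mostly lack a poly(A) tail, and the libraries were made with an mRNA kit. Of 61 measured histone genes 20 were higher and 0 lower, with a median of 0.31. Higher genes numbered 3, 0, 1 and 12 without M1, M2, N1 and N2, and 1 without the variance trend. The MCF10A EV libraries disagreed for these genes: the list median relative to PBS was -0.36 and -0.07 in N1 and N2 and 0.44 and 0.42 in M1 and M2. H2A genes made up 15 of the calls, from Hist2h2aa1 (0.17, adjusted p up to 0.3 without M1, M2, N1 or N2) to Hist2h2ac (0.30, adjusted p up to 0.27 without M1, M2 or N1). H3 and H4 genes made up 5, from Hist1h3h (0.97, adjusted p up to 0.27 without M1, M2, N1 or N2) to Hist2h4 (1.59, adjusted p up to 0.099 without M2 or N2). The copies are near-identical, so reads of single genes are uncertain.

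Inhibitors of the cell cycle differed in opposite directions. Cdkn1b, the CDK inhibitor p27, measured 844 and 789 normalised reads with MCF10A EVs against 1146 and 1129 with MDA-MB-231 EVs, beside 1034 and 1037 with PBS. Cdkn1a, the CDK inhibitor p21 and a target of p53, measured 4115 and 4179 normalised reads with MCF10A EVs against 3211 and 3089 with MDA-MB-231 EVs, beside 4431 and 4339 with PBS. Rb1, the retinoblastoma protein, measured 543 and 602 normalised reads with MCF10A EVs against 738 and 727 with MDA-MB-231 EVs, beside 873 and 869.8 with PBS. Cdkn1b was above PBS with MDA-MB-231 EVs and below it with MCF10A EVs, Cdkn1a was below PBS with both sources, and Rb1 was below it with both and further with MCF10A EVs. Cdkn1b differed by 0.48 ± 0.05 (limma adjusted p = 1.0e-05), Cdkn1a by -0.40 ± 0.03 (limma adjusted p = 8.1e-07) and Rb1 by 0.36 ± 0.06 (limma adjusted p = 8.1e-04, adjusted p up to 0.061 without M1 or M2). The related pocket protein Rbl2 (0.26, trend-dependent) was higher. In all, 4 of 27 genes of the G1 and E2F axis were higher (2, 2, 3 and 4 without M1, M2, N1 and N2) and 3 lower (3, 1, 2 and 2 without M1, M2, N1 and N2). These were 14.8% and 11.1% of the list, beside 8.19% and 12.2% among all genes. Of 25 genes of p53 and its targets, 9 were lower and 0 higher. Lower genes numbered 6, 4, 5 and 5 without M1, M2, N1 and N2, and 4 without the variance trend. Plk2, a stress-induced polo-like kinase, measured 4444 and 4348 normalised reads with MCF10A EVs against 3041 and 2860.3 with MDA-MB-231 EVs and differed by -0.58 ± 0.04 (limma adjusted p = 3.1e-08). Plk3, a related kinase, measured 843 and 890.2 normalised reads with MCF10A EVs against 543 and 572 with MDA-MB-231 EVs and differed by -0.63 ± 0.06 (limma adjusted p = 2.3e-06). Mdm2 (-0.21, adjusted p up to 0.095 without M2, N1 or N2) and Fas (-0.21, adjusted p up to 0.11 without M1, M2 or N2), the p53 ligase and a death receptor, were lower as well.

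Hypoxia-inducible genes, which HIF raises when oxygen falls, gave 8 higher and 5 lower (3, 1, 3 and 3 without M1, M2, N1 and N2) of 29, with a median of 0.09. Higher genes numbered 7, 8, 8 and 7 without M1, M2, N1 and N2, and 4 without the variance trend. Bnip3, a mitophagy receptor, measured 2077 and 2023 normalised reads with MCF10A EVs against 3021 and 2882 with MDA-MB-231 EVs, beside 5185 and 4944 with PBS. Pdk1, the kinase that shuts pyruvate dehydrogenase, measured 1983 and 2108 normalised reads with MCF10A EVs against 2776 and 2707 with MDA-MB-231 EVs, beside 4171 and 4305 with PBS. Mxi1, a MAX partner that opposes MYC, measured 1407 and 1395 normalised reads with MCF10A EVs against 1819 and 1785 with MDA-MB-231 EVs, beside 2585 and 2547 with PBS. All 3 were highest with PBS and lowest with MCF10A EVs. Bnip3 differed by 0.53 ± 0.04 (limma adjusted p = 1.6e-07), Pdk1 by 0.42 ± 0.04 (limma adjusted p = 2.1e-06) and Mxi1 by 0.36 ± 0.04 (limma adjusted p = 8.5e-06). The oxygen-dependent dioxygenases Egln1 (0.31, trend-dependent) and Kdm3a (0.30, trend-dependent) were higher too, while Vegfa, Ero1l and Nfil3 (-0.21, adjusted p up to 0.083 without M1 or M2) were lower. The hypoxia response core ACGTG, searched on both strands, was found for 17 of 23 list genes with an entry (73.9%) and for 28.9% of all compared genes with one, while 19.6% of all promoters held it. Of the 17 genes, 4 were higher and 2 lower. Among called genes with an entry, the core was found for 26.7% of higher ones and 34.6% of lower ones. It also lies within the E-box CACGTG.

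Of 30 glycolysis and pentose phosphate genes, 7 were higher (1, 5, 1 and 3 without M1, M2, N1 and N2) and 2 lower (1, 0, 1 and 0 without M1, M2, N1 and N2), with a median of 0.06. The phosphofructokinases Pfkl (0.21, adjusted p up to 0.074 without M1 or N1) and Pfkp (0.19, adjusted p up to 0.074 without M1 or N1) were higher with Pdk1. Slc2a1, the glucose carrier GLUT1, measured 5093 and 5030.3 normalised reads with MCF10A EVs against 5517 and 5175 with MDA-MB-231 EVs, beside 7085 and 6834 with PBS. Ldha, lactate dehydrogenase A, measured 30046 and 30127 normalised reads with MCF10A EVs against 33353 and 30669.5 with MDA-MB-231 EVs, beside 44167 and 42735 with PBS. They differed by 0.08 and 0.09 and were not called (limma adjusted p = 0.15 and 0.099). Lpl, lipoprotein lipase, measured 9785 and 9796 normalised reads with MCF10A EVs against 6726 and 6127 with MDA-MB-231 EVs, beside 20402 and 20072 with PBS, and differed by -0.61 ± 0.04 (limma adjusted p = 2.5e-08). It was highest with PBS and lowest with MDA-MB-231 EVs. Of 31 lipid genes, 9 were lower (3, 2, 3 and 5 without M1, M2, N1 and N2) and 5 higher (1, 1, 1 and 3 without M1, M2, N1 and N2). Cholesterol genes gave 4 higher (0, 0, 3 and 0 without M1, M2, N1 and N2) and 3 lower (1, 0, 1 and 0 without M1, M2, N1 and N2) of 25, and respiratory chain and ATP synthase genes 7 higher (0, 0, 1 and 2 without M1, M2, N1 and N2) and 3 lower (1, 0, 0 and 0 without M1, M2, N1 and N2) of 73. Among all genes 8.19% were higher and 12.2% lower, beside 9.59% and 4.11% of the respiratory chain list.

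Of 43 nucleolar and RNA polymerase I genes, 21 were lower and 0 higher, with a median of -0.16. Lower genes numbered 11, 5, 13 and 8 without M1, M2, N1 and N2, and 0 without the variance trend. Nop2, a methyltransferase of ribosomal RNA, measured 1989 and 1930.5 normalised reads with MCF10A EVs against 1654 and 1564 with MDA-MB-231 EVs, beside 1191 and 1220.5 with PBS, and differed by -0.28 ± 0.04 (limma adjusted p = 3.2e-04, trend-dependent). Tsr1 (-0.28, trend-dependent) and Rrs1 (-0.26, adjusted p up to 0.12 without M2 or N2) were lower as well. Of 37 proteasome subunits, 17 were lower and 0 higher, with a median of -0.11. Lower genes numbered 8, 1, 6 and 8 without M1, M2, N1 and N2, and 0 without the variance trend, and Psma6 (-0.22, trend-dependent) was lowest. Translation initiation factors gave 8 lower (5, 2, 3 and 4 without M1, M2, N1 and N2) and 1 higher (0, 0, 0 and 1 without M1, M2, N1 and N2) of 28, among them Eif1 (-0.23, trend-dependent) and Eif2s2 (-0.21, trend-dependent). Of 78 cytosolic ribosomal proteins 2 were higher (0, 0, 0 and 0 without M1, M2, N1 and N2) and 0 lower, but 31 were higher with library totals and 27 with quantile scaling. Of 73 mitochondrial ones 1 was lower (0, 0, 0 and 0 without M1, M2, N1 and N2) and 0 higher. Chaperonin genes gave 2 lower (0, 0, 0 and 1 without M1, M2, N1 and N2) and 0 higher of 16. Myc measured 1589.8 and 1658 normalised reads with MCF10A EVs against 1444 and 1396 with MDA-MB-231 EVs, beside 1556 and 1575 with PBS, and differed by -0.19 ± 0.04 (limma adjusted p = 0.0052, adjusted p up to 0.1 without M2 or N2). The polyamine enzymes Odc1 (-0.45, trend-dependent), Smox (-0.46) and Sat1 (-0.36) were lower, of which Odc1 is ornithine decarboxylase. In all, 7 of 20 MYC network and polyamine genes were lower (6, 4, 7 and 5 without M1, M2, N1 and N2) and 1, Mxi1, higher.

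Interferon-stimulated genes gave 10 higher and 2 lower (0, 0, 0 and 1 without M1, M2, N1 and N2) of 32 measured (47 entries), with a median of 0.17. Higher genes numbered 3, 1, 6 and 5 without M1, M2, N1 and N2, and 0 without the variance trend. Parp14, an ADP-ribosyltransferase, measured 367 and 415 normalised reads with MCF10A EVs against 513 and 586 with MDA-MB-231 EVs, beside 481 and 491 with PBS, and differed by 0.49 ± 0.08 (limma adjusted p = 7.4e-04, adjusted p up to 0.086 without M2). The transcription factors Irf1 (0.32, trend-dependent) and Stat2 (0.27, adjusted p up to 0.11 without M1, M2, N1 or N2) were higher. Isg15, at 26.7 and 20.1 normalised reads with MCF10A EVs against 25.4 and 26.6 with MDA-MB-231 EVs, differed by 0.16 and was not called (limma adjusted p = 0.74). Of 18 class I antigen presentation genes, 3 were higher (1, 3, 1 and 3 without M1, M2, N1 and N2) and 5 lower (3, 2, 3 and 4 without M1, M2, N1 and N2). The light chain B2m (0.22, trend-dependent) was higher and the heavy chain genes H2-T22 (-0.28, trend-dependent) and H2-D1 (-0.22, trend-dependent) were lower, whose near-identical copies make their reads uncertain.

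Of 31 NRF2 antioxidant and glutathione genes, 17 were lower and 3 higher (2, 0, 2 and 2 without M1, M2, N1 and N2), with a median of -0.12. Lower genes numbered 11, 6, 9 and 11 without M1, M2, N1 and N2, and 1 without the variance trend. Srxn1, sulfiredoxin, measured 5968 and 5684 normalised reads with MCF10A EVs against 4440.4 and 4369.6 with MDA-MB-231 EVs and differed by -0.40 ± 0.03 (limma adjusted p = 4.9e-07). Hmox1, haem oxygenase 1, measured 2086 and 2149.5 normalised reads with MCF10A EVs against 1726 and 1594 with MDA-MB-231 EVs, beside 1629 and 1542 with PBS, and differed by -0.35 ± 0.05 (limma adjusted p = 8.6e-05, trend-dependent). Txnrd1, thioredoxin reductase, measured 9002 and 9168 normalised reads with MCF10A EVs against 7493 and 7206 with MDA-MB-231 EVs and differed by -0.31 ± 0.03 (limma adjusted p = 6.1e-06, trend-dependent). Hmox1 stood above PBS with MCF10A EVs and close to it with MDA-MB-231 EVs. The exporter Abcc1 (-0.36, trend-dependent) was lower, and the glutathione transferases Gsta4 (0.38, adjusted p up to 0.093 without M2) and Gstm1 (0.25, adjusted p up to 0.062 without M2) were higher. Of 42 lysosome and autophagy genes, 18 were lower (12, 7, 11 and 14 without M1, M2, N1 and N2) and 2 higher (0, 0, 0 and 0 without M1, M2, N1 and N2). Sqstm1, the autophagy receptor p62, measured 16349.7 and 15965 normalised reads with MCF10A EVs against 13349 and 13045 with MDA-MB-231 EVs and differed by -0.29 ± 0.03 (limma adjusted p = 2.6e-06). Of the 29 tetraspanins and vesicle biogenesis genes of the fibroblasts themselves, 5 were lower (2, 2, 2 and 3 without M1, M2, N1 and N2) and 1 higher. Cd9 (-0.31, trend-dependent) and Cd63 (-0.22, trend-dependent), tetraspanins that also mark released vesicles, were lower. Flot1, a membrane raft protein, measured 2426 and 2383 normalised reads with MCF10A EVs against 2986 and 2985 with MDA-MB-231 EVs and differed by 0.31 ± 0.03 (limma adjusted p = 1.4e-05). Circadian clock genes gave 4 higher (1, 0, 2 and 2 without M1, M2, N1 and N2) and 2 lower (0, 0, 1 and 1 without M1, M2, N1 and N2) of 19, and glucocorticoid receptor targets 4 higher (3, 1, 3 and 4 without M1, M2, N1 and N2) and 5 lower (5, 3, 4 and 4 without M1, M2, N1 and N2) of 12.

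Some markers of other cell types reached the level rule and differed. Besides Cd14 and the genes described next, the adipocyte marker Lipe (-0.29, call lost without M1, M2, N1 or N2) was lower. So was the muscle marker Myh3 (-1.24, limma adjusted p = 0.033). Myh3 measured 16.12 and 16.09 normalised reads with MCF10A EVs against 6.1 and 6.4 with MDA-MB-231 EVs. It met the level rule through the MCF10A EV libraries alone, and its calls in other settings are not given here. Csf1r, the receptor of the macrophage growth factor CSF-1, measured 84.7 and 76.8 normalised reads with MCF10A EVs against 27.4 and 27.7 with MDA-MB-231 EVs, beside 81.3 and 75.6 with PBS. Cdh5, VE-cadherin of endothelium, measured 329 and 279.8 normalised reads with MCF10A EVs against 176 and 144 with MDA-MB-231 EVs, beside 351 and 344 with PBS. Sox9, a cartilage factor, measured 844 and 990.1 normalised reads with MCF10A EVs against 1309 and 1259 with MDA-MB-231 EVs, beside 1074 and 1057 with PBS. Csf1r and Cdh5 were lowest in both MDA-MB-231 EV libraries, and Sox9 was highest there. Csf1r differed by -1.52 ± 0.20 (limma adjusted p = 7.0e-05), Cdh5 by -0.93 ± 0.11 (limma adjusted p = 4.8e-05, trend-dependent) and Sox9 by 0.49 ± 0.06 (limma adjusted p = 7.1e-05, adjusted p up to 0.051 without M1). Other markers of these cell types varied in level. Emr1 and Spi1 had no read, Pecam1 measured at most 1.89 normalised reads in any library and Col2a1 at most 1.01. Runx2 (0.22), of the cartilage and bone list, measured 1390 and 1444 normalised reads with MCF10A EVs against 1606 and 1703 with MDA-MB-231 EVs. It was called higher in the main fit (limma adjusted p = 0.0029), and its calls in the other settings are not given here. The endothelial marker Flt1 (-0.21) and the macrophage and leukocyte markers Lyz2 (0.48) and Mrc1 (-0.18) reached the level rule and were not called. The value of Lyz2 had the opposite sign to that of Csf1r, but on few reads. Lyz2 measured 12.88 and 11.81 normalised reads with MCF10A EVs against 19.29 and 16.04 with MDA-MB-231 EVs. With PBS it measured 21.53 and 12.94. Of the 15 fibroblast markers 3 were higher, Col1a2, Pdgfra and Pdgfrb, and 8 were lower, with Dcn and Twist2 (-0.39, trend-dependent) lowest.

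**Figure D5:**
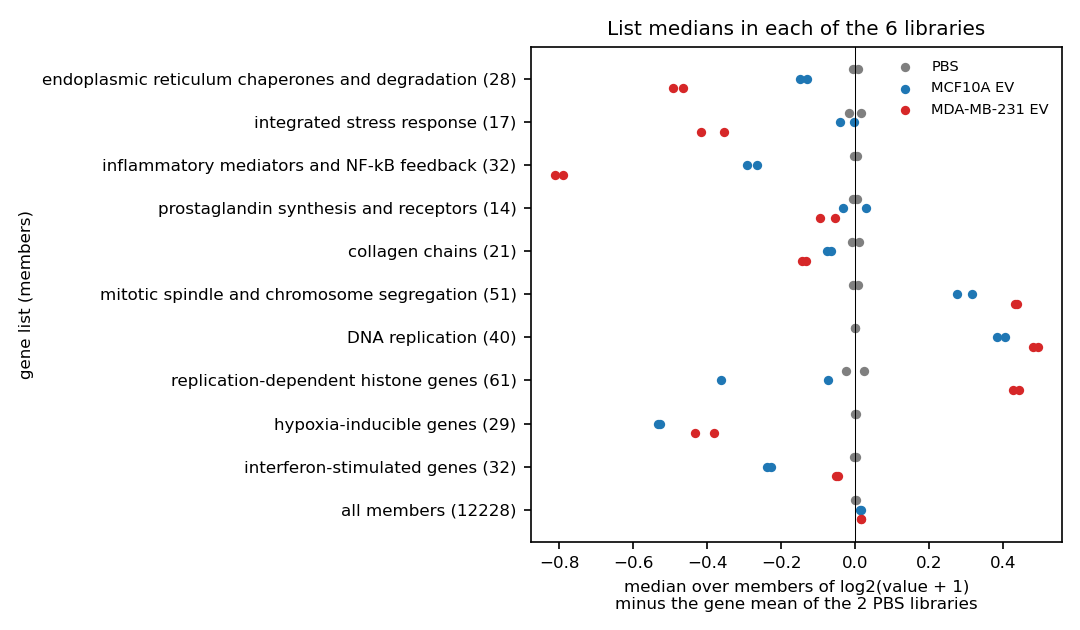
Median over the members of 10 gene lists, and over all 12228 genes, of log2(value + 1) minus the mean over the 2 PBS libraries; each point is 1 of the 6 libraries. The MDA-MB-231 EV libraries lie left of the MCF10A EV libraries for lists such as the inflammatory one (-0.81 and -0.79 against -0.27 and -0.29) and right of them for the mitotic one (0.44 and 0.43 against 0.27 and 0.31).

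Set beside PBS, the lists took different arrangements. Medians of the inflammatory list relative to PBS were -0.27 and -0.29 in the MCF10A EV libraries and -0.81 and -0.79 in the MDA-MB-231 EV libraries. For the ER list they were -0.13 and -0.15 against -0.46 and -0.49, and for the integrated stress response list -0.003 and -0.04 against -0.36 and -0.42. On these 3 lists MDA-MB-231 EVs stood further below PBS, and on the last MCF10A EVs stood close to it. Hypoxia genes gave -0.53 and -0.53 against -0.38 and -0.43, and interferon-stimulated genes -0.23 and -0.24 against -0.05 and -0.05, so that here MCF10A EVs stood further below PBS. Mitotic genes gave 0.27 and 0.31 against 0.44 and 0.43, nucleolar genes 0.41 and 0.46 against 0.32 and 0.28, and aminoacyl-tRNA synthetases 0.21 and 0.23 against 0.07 and 0.002. Mitotic and nucleolar genes thus stood above PBS with both sources, the former more with MDA-MB-231 EVs and the latter more with MCF10A EVs. Over all 12228 genes the medians lay between 0.012 and 0.016 in the 4 vesicle libraries. Values against PBS share the PBS libraries and, with the comparison of sources, the vesicle libraries, so these medians are given as a description.

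At the threshold that defined the genes compared, Slc2a4, Plac1 and Susd2 were just inside, with a second-highest value of 10.136, 10.135 and 10.135 normalised reads among the 4 vesicle libraries. Tspyl3, Gata3 and Krt86 were just outside, at 9.81, 9.81 and 9.91. All 4 vesicle libraries were at 10 or more for 11851 genes. The MDA-MB-231 EV libraries alone brought in 51 genes, of which 7 were called, and the MCF10A EV libraries alone 37, of which 14 were called. Among all 12228 genes 20.4% were called. For genes brought in by a single source the level rule itself fixed the direction of the difference. Their calls are counted among the 1001 higher and 1496 lower genes.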

How the data were processed

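Libraries of NIH3T3 cells were made with a Kapa stranded mRNA kit, per the labels' protocols, and the submitters' processing notes name TopHat2, edgeR and the human build hg19, although the gene symbols are of mouse. Not given in the sources used here: the read counter, the annotation, the mouse build, the use of strand and any removal of human reads. The deposited table holds a normalised signal per gene, and its values equal edgeR pseudo-counts, which are read counts adjusted to a common depth within each treatment group. Under that formula whole reads were recovered for 100.0% of 122850 values at a relative tolerance of 1e-06. An adjustment within groups is not a linear scaling and can alter the spread between replicates. The members and gene lists were chosen with earlier results of these data known.

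The deposited signal was tested with limma 3.58.1 in R 4.3.3 on log2(value + 1), with the 3 groups of 2 libraries in 1 fit and a prior variance that follows the level. Genes with a value of at least 1 in at least 2 libraries entered, 15025 in all, and the fit had 3 residual and 11.5 prior degrees of freedom. Benjamini-Hochberg adjustment covered all of them, at a threshold of 0.05. A log2 fold change on this scale understates the change of low genes. The named genes were the 12 with the largest called difference in each direction among those with a mean of at least 100 and vesicle libraries that did not overlap (predicted genes left out), up to 4 called genes of each list, all called genes of lists with 5 or fewer, and a few always named, such as Acta2 and Myc. The text gives part of them. A further 95 were named for their role after their values were seen. Of 290 genes named by rule 287 were called, and 85 of these kept their call in every alternative; of the 95, 88 were called and 26 kept it.

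Recovered counts were tested with edgeR 4.0.16 (quasi-likelihood), which called 2987 of 12352 genes, and with DESeq2 1.42.0. Other alternatives were a pseudocount of 10, other filters, TMM, quantile and library-total scaling, no variance trend, the 4 vesicle libraries alone, a replicate block and leaving out each library. On simulated data limma found 37, 46, 49 and 50 of 50 genes changed by 1.25, 1.5, 2 and 4-fold, with 5 false calls among 14560 genes. In the same simulation edgeR found 42, 49, 49 and 50, with 16 false calls among 12124. The changed genes were drawn from those with a mean of at least 50 normalised reads, and far fewer genes were changed than were called in the data. The simulated counts were scaled linearly, without the adjustment within groups. These numbers therefore do not carry over to low genes or to the deposited values. Some results are not reported here because they concern items withheld for evaluation.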

Additional observations from a re-analysis of the deposited data

How the results depend on the processing

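Of genes called, 1001 were higher and 1496 lower. With no variance trend 87 were higher and 235 lower, and 309 of these 322 had been called before. With DESeq2 on recovered reads they numbered 577 and 937, and 620 were higher in a fit of the 4 vesicle libraries alone. With library totals 1763 were higher. Leaving out 1 library gave 185 to 531 higher and 531 to 865 lower, where the lone sample is assumed to vary like the other groups. edgeR gave 1346 higher and 1634 lower, TMM scaling 1093 and 1418, and quantile scaling 1219 and 1182. At an unadjusted p under 0.05, 4115 genes passed.

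Changes of at least 1.5-fold numbered 85 higher and 169 lower, and 25 and 97 with no variance trend, 21 and 99 with the filter of a mean of 5 CPM, 48 higher with DESeq2, and 14 to 68 and 97 to 139 without single libraries. Changes of at least 2-fold numbered 35 and 54, and 11 and 26 with no variance trend, 7 and 25 with a pseudocount of 10, 3 and 15 with the filter at 5 CPM, 23 higher with quantile scaling, 19 and 35 with DESeq2, and 3 to 32 and 24 to 49 without single libraries. Of the named genes, Fn1 alone reversed in sign, from -0.13 to 0.0305 with quantile scaling (limma adjusted p = 0.349).

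With a replicate block 1014 genes were higher and 1501 lower. Same-numbered libraries did not deviate together (correlations of -0.01, 0.02 and 0.03 over 10104 genes), which gave no sign that the numbers pair the samples. Each group gave a single difference between its libraries, so a pairing is not excluded. A depth of 22451173 to 29315530 reads and 2 libraries a group limit what can be seen of small differences at low levels.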
